A study of Sus scrofa with 18 samples.

Results

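MicroRNA genes code for short RNAs that do not make protein. The primary transcript is cut in the nucleus and again in the cytoplasm, and the mature microRNA then guides an Argonaute protein to partly matching messenger RNAs, which are degraded or translated less. Skeletal muscle is known for a small set of its own microRNAs, among them MIR1, MIR133, MIR206, MIR208B and MIR499, some of which lie inside myosin heavy chain genes. The probe sets of the gene array used here read transcripts of the microRNA genes, and whether a probe set picked up the primary, the precursor or the mature RNA is not given in the sources used here.

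The microRNA transcripts described here are the 175 probe sets, of 25388 on the array, whose annotation gives exactly 1 gene name and whose name is that of a microRNA gene. They carry 161 gene names. For 14 of these names several probe sets held identical values, and these were counted as 1 profile wherever profiles are counted, which left 161 profiles. Expression was measured in gastrocnemius muscle, a calf muscle, of 18 male crossbred pigs that entered the trial at 5 weeks of age and were fed for 4 weeks. Group CON had soybean extraction meal as its main protein source, and in groups IM5 and IM10 insect meal of the mealworm Tenebrio molitor L. made up 5 and 10% of the diet, in place of 50 and 100% of the soybean meal. Each group had 6 pigs and 1 array per pig. All pigs shared the breed cross and the tissue, and the diets were set to be isonitrogenous. The study also added cellulose to the IM5 and IM10 diets, which held more crude fiber than the CON diet. The groups thus differed in more than the protein source. Several pigs shared a pen, and since the labels do not tie pigs to pens, the p-values measure the spread between single pigs.

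The arrays were alike in their overall level, with medians between 4.91 and 5.00 on the log2 scale and correlations between 0.977 and 0.991 for every pair of arrays. The muscle markers ACTA1, MYH1, MYH7 and their like, 4 probe sets in all, lay between percentiles 99.3 and 99.9 of the array. One array stood apart by its macrophage markers, IM10 replicate 2, whose median over 5 probe sets lay 1.17 log2 units above the median pig. Without this pig the calls among microRNA transcripts by the thresholds given further on were 2 higher and 5 lower for IM10 against CON (1.17 and 1.06% of all transcripts in the same fit) and 1 higher and 6 lower for IM10 against IM5 (1.34 and 1.22%). These were partly other members than with all pigs. For IM10 against CON, MIR15A and MIR1307 were lost, and the 5 lower ones held 2 MIR92A-2 probe sets with identical values. For IM10 against IM5, MIR181A-2, MIR1307, MIR664 and MIRLET7F-1 were lost.

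Most microRNA transcripts were dim. Mean log2 intensity of a member over the 18 pigs had a median of 2.71 and ran from 1.19 for MIR450B to 7.77 for MIR324, whereas the median of all 25388 transcripts was 4.95. The median member lay at percentile 13.3 of all transcripts. Of the 175 probe sets, 131 (74.9%) lay at or below the 30th percentile of the array, at a log2 intensity of 3.95, and 44 lay above it. A total of 38 lay below the 5th percentile, at 1.87, and 77 below the 10th. For comparison, 50 probe sets for genes of liver, pancreas, testis, brain and other organs that skeletal muscle is not known to express had a median of 3.31, and 31 of them lay at or below the same 30th percentile. Of the 175, 11 exceeded the 95th percentile of that list, at 5.47, a level that by definition about 5% of the list itself exceeded. Probe sets differ in how strongly they bind their target, so these positions say how far each value stood above the dim end of the array and give no order of abundance between microRNAs.

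**Figure D1:**
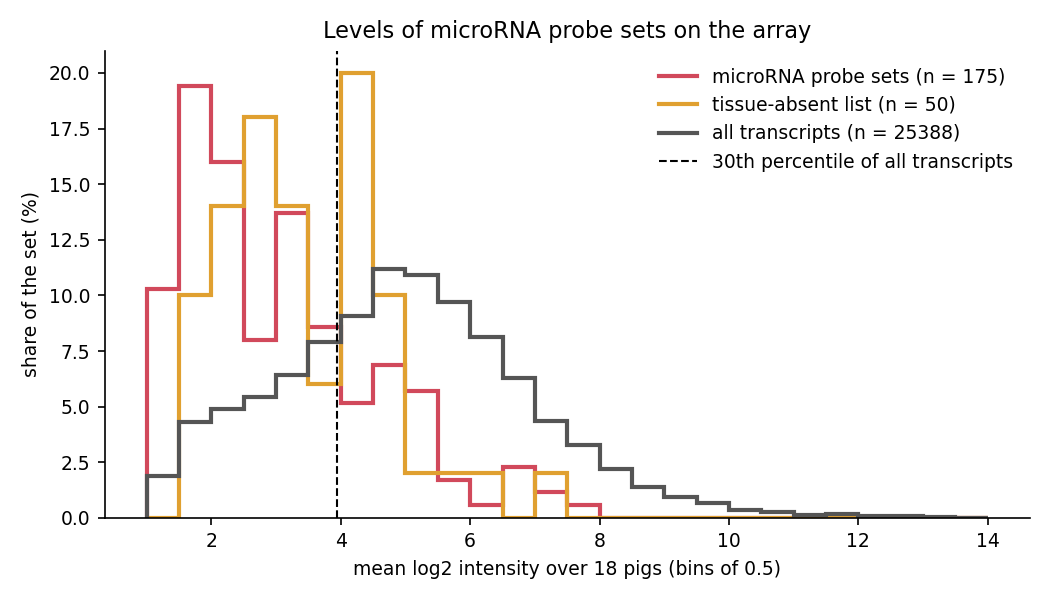
Share of each set (vertical axis, %) by mean log2 intensity over 18 pigs (horizontal axis, bins of 0.5) for 175 microRNA probe sets, 50 probe sets of genes not known to be expressed in muscle and all 25388 transcripts; the dashed line is the 30th percentile of all transcripts, at 3.95. The microRNA curve lies to the left of that of all transcripts, with 131 of 175 probe sets at or below the line.

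The brightest members were of mixed kinds. MIR324 (7.77, percentile 92.3), MIR574 (7.37, percentile 89.4), MIR328 (7.03, percentile 86.3) and MIR210 (6.91, percentile 85.0), the last known in mammals as a target of the hypoxia response, led the list. They were followed by the muscle microRNA MIR133B (6.79), the let-7 member MIRLET7E (6.79), MIR181C (6.62) and MIR105-1 (6.37). MIR124A-1, known as a brain microRNA, came next at 5.90 (percentile 69.8), and MIR149 had 5.79. None of these 10 passed the thresholds in any comparison, and the difference farthest from 0 between an insect meal group and CON was 0.20 log2 units, of MIR574 in IM10.

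Microarray probe sets were called different when the unadjusted P was below 0.05 and the fold change (FC) was beyond 1.2 in either direction, as the study's methods define it, here with limma across all transcripts. Between groups IM10 and CON, 2 microRNA transcripts were higher in IM10 (MIR15A and MIR29C) and 4 were lower (MIR98, MIR199A-1, MIR204 and MIR1307), where 1.12 and 1.17% of all transcripts were called in these directions. These 6 are 3.43% of the 175, beside 2.29% of all transcripts and 2.99% of the dimmest 30% of transcripts. Between groups IM5 and CON, 5 were higher in IM5 (MIR29C, MIR15A, MIRLET7C, MIR181B-2 and MIR425) and 4 were lower (MIR98, MIR30D, MIR204 and MIR103-1), which is 5.14% of the members, beside 2.1% of all transcripts (1.09% higher and 1.01% lower) and 3.3% of the dimmest 30%. Both comparisons use the same 6 CON pigs. The median log2 change of the 175 was -0.04 in IM10 and 0.02 in IM5 against CON, and that of all transcripts was 0.00 in both.

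None of these calls held after Benjamini-Hochberg adjustment over all transcripts. With limma the lowest adjusted p among the 175 was 0.991 for IM10 against CON and 0.998 for IM5 against CON, and of all transcripts 0.00394% passed in IM10 and 0% in IM5. Before adjustment, limma's P was under 0.05 for 11 members in IM10 and 9 in IM5, beside 4.38 and 3.7% of all transcripts. The methods' t-test likewise left 0 members after adjustment, with 10 of the 175 in each comparison below 0.05 before it. Of all 25388 transcripts, 1149 were below 0.05 by this test in IM10 and 967 in IM5. Single transcripts are further given a two-sided exact permutation p over all splits of the 12 pigs of a comparison, which uses only these pigs and cannot go below 0.00216, so it can differ from the call. In both comparisons the called members were dim: only MIR15A lay above the 30th percentile of the array. No called member in these 2 comparisons had values in an insect meal group that were all outside the range of CON, a pattern seen in 0.213% of all transcripts for IM10 and 0.15% for IM5.

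MIR98 showed the largest change of all members against CON, in group IM10. It belongs to the let-7 family and lies, by the RefSeq annotation, within the gene HUWE1, a ubiquitin ligase gene. Its log2 intensity ran from 2.31 to 3.61 in CON (median 3.36), from 2.02 to 3.54 in IM5 (median 2.48) and from 2.07 to 2.61 in IM10 (median 2.27). The IM10 pigs lay close together and below 5 of the 6 CON pigs. CON replicate 4, at 2.31, was the one control pig inside their range, and in IM5 replicates 2 and 4, at 3.54 and 3.13, stood with the controls. The log2 change was -0.86 ± 0.23 (SE, exact permutation p = 0.00649, FC -1.82) for IM10 against CON and -0.57 ± 0.23 (exact permutation p = 0.104, FC -1.49) for IM5 against CON, with 6 of 6 and 5 of 6 pigs below the CON mean. Without CON replicate 4 the IM10 value was -1.04. The IM5 call was lost without CON replicate 1 (-0.49), CON replicate 6 (-0.51), IM5 replicate 3 (-0.45) or IM5 replicate 5 (-0.46) and with the methods' t-test. The difference of IM10 from IM5 was -0.29 ± 0.23 (exact permutation p = 0.325). The mean level of MIR98, 2.71, is at percentile 13.3 of the array.

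MIR29C, of a family known in mammals for acting on collagen and other matrix messenger RNAs, ran the other way. Its values were 2.95 to 3.75 in CON (median 3.38), 3.63 to 4.43 in IM5 (median 3.88) and 3.42 to 4.02 in IM10 (median 3.90). All 6 pigs of either insect meal group lay above the CON mean of 3.35, and the ranges overlapped because of CON replicate 2 at 3.75 and, in IM10, replicate 3 at 3.42. The log2 change was 0.48 ± 0.14 (exact permutation p = 0.0130, FC 1.40) for IM10 and 0.59 ± 0.14 (exact permutation p = 0.00433, FC 1.51) for IM5, and the difference of IM10 from IM5 was -0.11 ± 0.14. Both calls were kept in all 18 fits that left out 1 pig. MIR29C averaged 3.71, at percentile 26.0, so it too lay under the 30th percentile. The other family members on the array were near its floor. MIR29A averaged 1.34 (percentile 0.772) and MIR29B-1 1.56 (percentile 2.34), and their changes were 0.00 ± 0.10 and -0.14 ± 0.14 for IM10, and 0.13 ± 0.10 and -0.15 ± 0.14 for IM5, against CON.

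MIR204 was lower in both insect meal groups. It lies within TRPM3, a cation channel gene, and its values were 2.35 to 2.77 in CON (median 2.56), 2.09 to 2.50 in IM5 (median 2.19) and 1.94 to 2.63 in IM10 (median 2.11). One IM10 pig, replicate 3 at 2.63, and one IM5 pig, replicate 2 at 2.50, reached the controls. The log2 change was -0.33 ± 0.11 (exact permutation p = 0.0303) for IM10 and -0.32 ± 0.11 (exact permutation p = 0.00649) for IM5, both kept whichever pig was left out.

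MIR15A, known in mammals for acting on the survival gene BCL2, was higher in both. Its values were 3.72 to 4.57 in CON (median 4.14), 4.35 to 4.94 in IM5 (median 4.66) and 4.04 to 4.64 in IM10 (median 4.54). The IM10 pigs lay between 4.51 and 4.64 except replicate 4 at 4.04. CON replicate 3, at 4.57, lay among the former, and CON replicates 2 and 6, at 4.41 and 4.27, lay above IM10 replicate 4. The log2 change was 0.33 ± 0.14 (exact permutation p = 0.0714) for IM10 and 0.48 ± 0.14 (exact permutation p = 0.0130) for IM5. The IM5 call was kept in all 18 fits without 1 pig, whereas the IM10 call was lost without CON replicate 1 (0.29), 4 (0.30) or 5 (0.24) or without IM10 replicate 1 (0.30) or 2 (0.29), the last being the pig with high macrophage markers, and with the methods' t-test. MIR16-2, its neighbour in the genome, had 2.17 to 3.45 over all pigs, with -0.20 ± 0.15 in IM10 and -0.05 ± 0.15 in IM5 against CON, neither of them called.

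The other members called against CON in a single insect meal group differed in how steady their calls were. MIR199A-1, a microRNA best known from stromal and smooth muscle cells, had 3.02 to 3.80 in CON (median 3.56), 3.15 to 3.95 in IM5 (median 3.58) and 2.82 to 3.29 in IM10 (median 3.16), a change of -0.35 ± 0.14 (exact permutation p = 0.0455) in IM10 and 0.08 ± 0.14 in IM5 against CON. Its IM10 call was lost without CON replicate 2 (-0.29) or IM10 replicate 6 (-0.30). MIR30D had 3.46 to 4.21 in CON (median 3.77), 3.30 to 3.53 in IM5 (median 3.41) and 3.56 to 4.02 in IM10 (median 3.67), so that 1 control pig, replicate 1 at 3.46, lay among the IM5 values. Its change was -0.36 ± 0.11 (exact permutation p = 0.00866) in IM5 and -0.06 ± 0.11 in IM10 against CON. The IM5 call of MIR30D was kept in all 18 fits without 1 pig. MIR1307 had -0.28 ± 0.14 in IM10 (exact permutation p = 0.0844), a call that was kept in 6 of the 18 fits without 1 pig and lost with the methods' t-test. MIRLET7C, called against CON in IM5 alone and kept in all 18 such fits, is described with its family below. The remaining IM5 calls were MIR181B-2, MIR425 and MIR103-1. MIR181B-2 had 0.37 ± 0.15 (exact permutation p = 0.0779). It was 0.29 and not called without CON replicate 3, and was not called with the methods' t-test. MIR425 had 0.30 ± 0.13 (exact permutation p = 0.0303, kept in 12 of 18). MIR103-1 had -0.30 ± 0.14 (exact permutation p = 0.0411, kept in 11 of 18), at a mean of 1.63, below the 5th percentile of the array.

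Between groups IM10 and IM5, 1 microRNA transcript was higher in IM10 and 8 were lower, 5.14% of the 175 beside 2.75% of all transcripts (1.43% higher and 1.32% lower) and 3.98% of the dimmest 30%. MIR30D was the higher one, at 0.30 ± 0.11 (exact permutation p = 0.00216). Every IM10 pig, from 3.56 up, lay above every IM5 pig, up to 3.53, and it was the only member whose groups did not overlap in a comparison. Values all higher in IM10 than in IM5 occurred in 0.106% of all transcripts. Without IM10 replicate 6 the difference was 0.24 and was not called. The lower ones, with the exact permutation p, were MIRLET7G (-0.51 ± 0.14, p = 0.00866), MIR199A-1 (-0.44 ± 0.14, p = 0.0152), MIRLET7F-1 (-0.39 ± 0.18, p = 0.110), MIR664 (-0.37 ± 0.17, p = 0.0649), MIR181B-2 (-0.36 ± 0.15, p = 0.0238), MIR219A (-0.29 ± 0.09, p = 0.00433), MIR1307 (-0.28 ± 0.14, p = 0.0563) and MIR181A-2 (-0.28 ± 0.12, p = 0.0887). For MIRLET7F-1 the values in IM5 ran from 0.93 to 2.50, and without IM5 replicate 1, at 2.50, the difference was -0.19. Of these 9 only MIR181A-2 lay above the 30th percentile of the array. With limma the lowest adjusted p among members was 0.931, 0 members and 0% of all transcripts passed after adjustment, and before it 10 members, beside 5.22% of all transcripts, had a P under 0.05. The methods' t-test left 0 members after adjustment and had 9 of the 175 before it, beside 1287 of all 25388 transcripts.

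The let-7 and MIR98 family had 8 members on the array. These microRNAs share a seed and are known in animals for holding back growth and cell cycle genes. MIRLET7E was bright at 6.79, with 6.65 to 6.96 in CON, 6.64 to 6.95 in IM5 and 6.51 to 7.15 in IM10. The other 7 lay at or below the 30th percentile, from MIRLET7F-1 at 1.30 to MIRLET7A-2 at 3.61. Against CON, 1 of the 8 was lower in IM10 (MIR98) and in IM5 1 was higher and 1 lower (MIRLET7C and MIR98), beside 1.17% of all transcripts lower in IM10, and 1.09% higher and 1.01% lower in IM5. The median change of the family was 0.05 in IM10 and 0.17 in IM5, beside 0.00 for all transcripts in both. MIRLET7C had 1.99 to 2.89 in CON (median 2.10), 2.25 to 3.07 in IM5 (median 2.71) and 2.12 to 2.81 in IM10 (median 2.37), a change of 0.45 ± 0.17 (exact permutation p = 0.0563) in IM5 and 0.18 ± 0.17 in IM10. CON replicate 3, at 2.89, stood 0.64 log2 units above the next control pig. MIRLET7G had 2.72 to 3.35 in IM10 (median 3.06) and 3.16 to 3.90 in IM5 (median 3.59), and 2.96 to 3.72 in CON, from which neither group was called different. The changes of MIRLET7A-1 (0.32 ± 0.17 in IM10 and 0.00 ± 0.17 in IM5), MIRLET7A-2 (0.14 ± 0.19 and 0.35 ± 0.19) and MIRLET7I (0.12 ± 0.11 and 0.10 ± 0.11) did not pass.

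**Figure D2:**
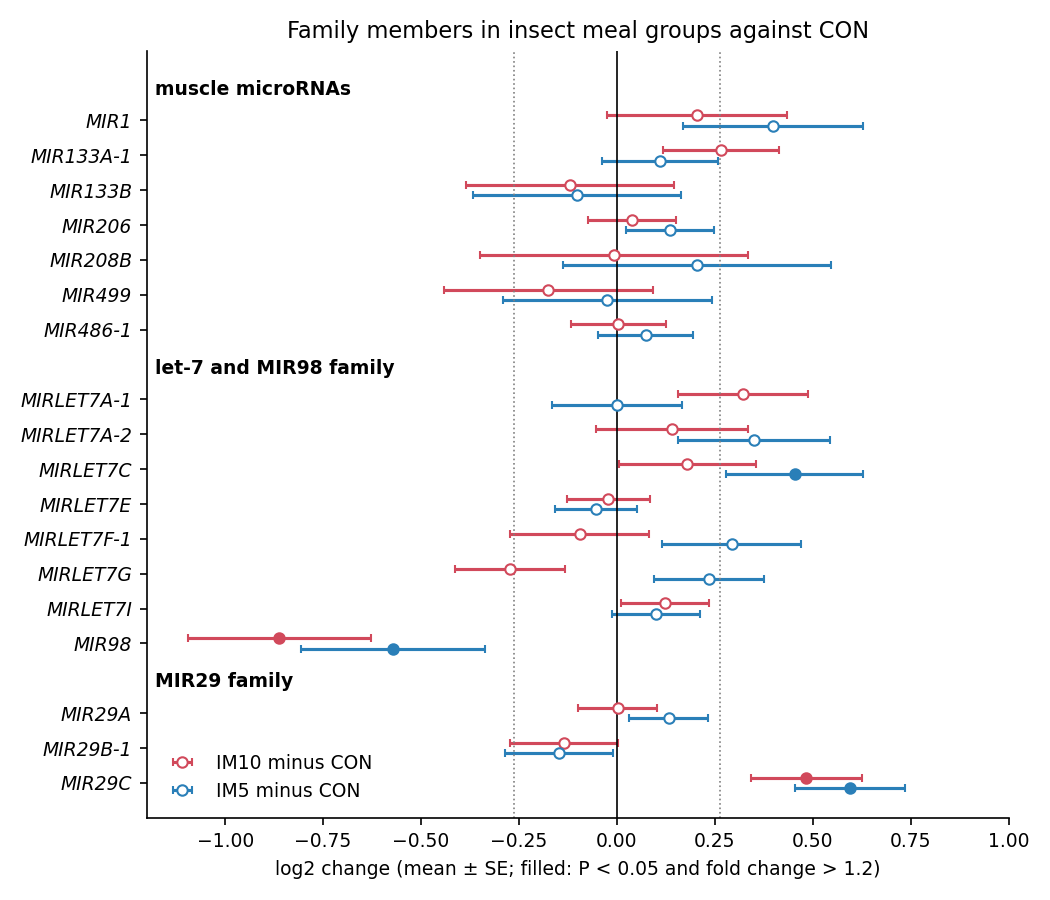
log2 change against CON (horizontal axis; points are limma estimates, bars their SE, n = 6 pigs per group) of the muscle microRNAs, the let-7 and MIR98 family and the MIR29 family, with IM10 above IM5 for each gene, filled points for calls and dotted lines at an FC of 1.2. No muscle microRNA is filled, and MIR98 (-0.86 in IM10, -0.57 in IM5) and MIR29C (0.48 in IM10, 0.59 in IM5) lie farthest from 0.

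The muscle microRNAs, 8 probe sets with 7 profiles, were not called in any of the 3 comparisons. Before adjustment, 0 of 8 had a P under 0.05 by limma and 0 of 8 by the methods' t-test. Of all transcripts 2.29, 2.1 and 2.75% were called for IM10 against CON, IM5 against CON and IM10 against IM5. At these shares a list of 8 would mostly hold 0 calls, so this count does not set the family apart. MIR133B was the one bright member, with 6.46 to 7.76 in CON (median 6.76), 6.25 to 7.44 in IM5 (median 6.61) and 6.16 to 7.78 in IM10 (median 6.62), and a change of -0.12 ± 0.26 in IM10 and -0.10 ± 0.26 in IM5 against CON. MIR486-1, known from blood and muscle, averaged 4.81, with 0.00 ± 0.12 in IM10 and 0.07 ± 0.12 in IM5 against CON. MIR1, at 4.06, lay just above the 30th percentile and had 3.64 to 4.22 in CON, 3.65 to 5.09 in IM5 and 3.37 to 4.73 in IM10, with changes of 0.20 ± 0.23 in IM10 and 0.40 ± 0.23 in IM5. The remaining 4 were dimmer: MIR206 averaged 3.42, MIR499 2.53, MIR133A-1 1.98 and MIR208B 1.95. Their largest change was 0.27 ± 0.15, of MIR133A-1 in IM10, which was called without CON replicate 4 (0.38) or IM10 replicate 2 (0.33), and MIR1 was called in IM5 without IM5 replicate 3 (0.52).

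Some muscle microRNAs spread widely between pigs of a group. The pooled within-group SD of the 161 profiles had a median of 0.24 log2 units, beside 0.19 for all transcripts and 0.21 for the dimmest 30%. The 3 largest SDs among the 161 were those of MIR208B (0.68), MIR499 (0.53) and MIR133B (0.52), and MIR1 had 0.45, below MIR27B (0.48), MIR23B (0.48) and MIR98 (0.46). The other 3 muscle profiles did not stand out, with 0.28 for MIR133A-1, 0.22 for MIR486-1 and 0.20 for MIR206. MIR208B was above 2.00 in 6 pigs only, at 2.55 and 2.04 in CON replicates 1 and 6, at 2.25 and 3.69 in IM5 replicates 1 and 6, and at 3.17 and 2.39 in IM10 replicates 1 and 6. The other 12 pigs lay between 1.30 and 1.85. The same 6 pigs had the highest values of MIR499, between 2.78 and 3.49, while the other 12 lay between 1.66 and 2.66. They are replicates 1 and 6 of each group, and the labels do not say what the replicate number stands for. The permutations of the correlations that follow treat all 18 pigs as exchangeable and take no account of this shared number.

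MIR208B lies within MYH7, the slow and cardiac myosin heavy chain gene, and MIR499 within MYH7B, a related myosin gene. These 6 pigs also had the highest MYH7 values, 11.54 to 12.20 against 8.59 to 11.05 in the other 12, and the highest values of MYH7B, 6.32 to 7.21 against 4.77 to 5.76. Over the 18 pigs, after the group means were removed, MIR499 and MYH7B had Pearson's r = 0.92 and Spearman's rho = 0.85 (permutation p = 1e-05 for both, the smallest that 100000 resamples can give, and 0.0006 after adjustment over the 60 pairs of a microRNA and its host gene). Without the 2 pigs farthest from the median r was 0.84. A second MYH7B probe set gave r = 0.83 and rho = 0.76 (permutation p = 2e-05 and 0.00052, adjusted 0.0006 and 0.0156), and r = 0.63 without the 2 farthest pigs. Within the upper 6 pigs r was 0.84 and rho 0.46 for MIR499 and the first MYH7B probe set, and within the other 12 r was 0.49 and rho 0.56.

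For MIR208B and MYH7, r was 0.71 and rho 0.69 (permutation p = 0.00061 and 0.00187, adjusted 0.0122 and 0.0374), with r = 0.64 without the 2 farthest pigs. Within the upper 6 pigs r was 0.60, and within the other 12 it was -0.03, so this relation rested on the 6 pigs with the highest MYH7. These were the only host pairs that passed the adjustment, of 60 pairs over 56 microRNA genes, in which r was above 0 in 42 and had a median of 0.17. MIR24-2 and C10H9orf3 (r = 0.64, adjusted permutation p = 0.0576) and MIR326 and ARRB1 (r = 0.60, adjusted permutation p = 0.0971) came next. For MIR98 and HUWE1 r was -0.38 (adjusted permutation p = 0.549). No host gene was called in any comparison with all pigs, and the change of MYH7 was 0.50 ± 0.52 in IM10 and 0.48 ± 0.52 in IM5 against CON.

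**Figure D3:**
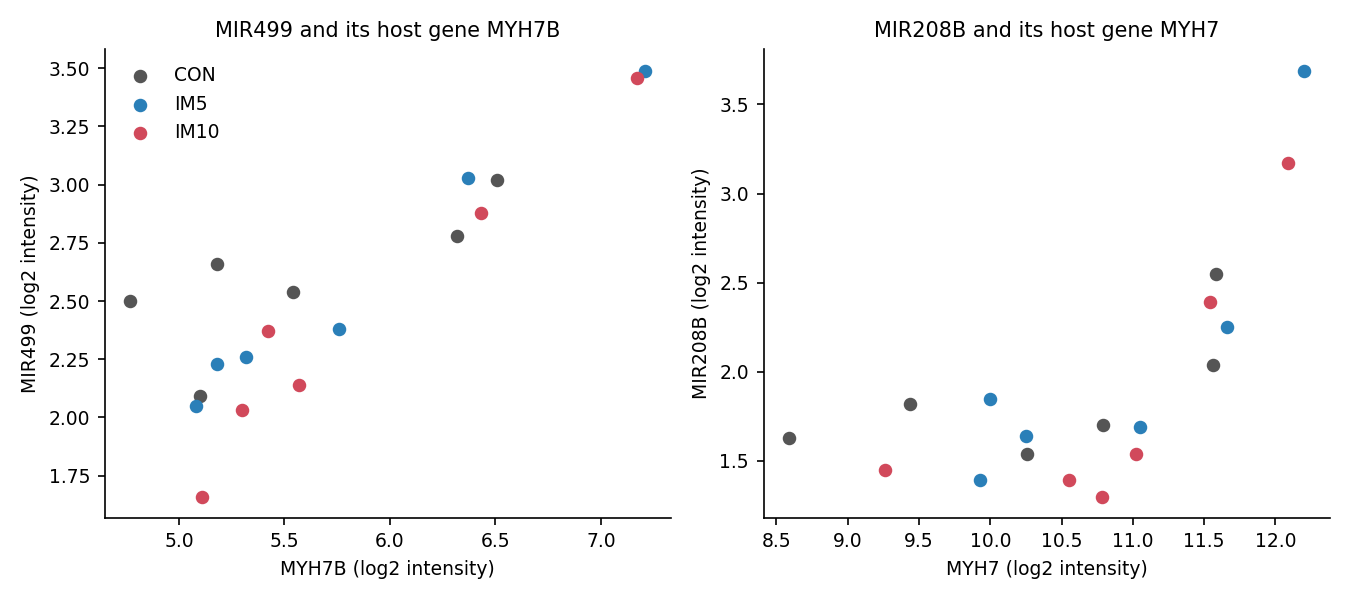
log2 intensity of MIR499 against MYH7B and of MIR208B against MYH7, 1 point per pig coloured by group. In both panels 6 pigs, 2 of each group, have the highest host gene values; MIR208B stays between 1.30 and 1.85 in the other 12 pigs.

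Some muscle microRNAs were also correlated with each other. Of 21 pairs among the 7 muscle profiles, a family of tests chosen after the values had been seen, 5 passed the adjusted threshold by Pearson's r and 2 by Spearman's rho. MIR499 and MIR208B had r = 0.87 and rho = 0.69 (adjusted permutation p = 0.00021 and 0.0458), with r = 0.73 without the 2 farthest pigs, 0.91 within the 6 pigs with the highest MYH7 and -0.03 within the other 12. MIR133B and MIR1 had r = 0.66 and rho = 0.65 (adjusted permutation p = 0.0122 and 0.0463), with r = 0.61 without the 2 farthest pigs. MIR133B had r = 0.72 with MIR499 and 0.70 with MIR208B (adjusted permutation p = 0.00735 and 0.0122), but by rho the adjusted p was 0.108 and 0.268, and MIR1 and MIR208B, at r = 0.66, fell to 0.29 without the 2 farthest pigs. MIR1 and MIR499 did not pass, at r = 0.49 and rho = 0.31 (adjusted permutation p = 0.141 and 0.482), with r = 0.06 without the 2 farthest pigs. MIR206 and MIR133B, which are neighbours in the genome, had r = 0.12.

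Probe sets of neighbouring microRNA genes in general varied together only weakly. Some of them, such as MIR450B, MIR20A, MIR29A and MIR19A, lay below the 5th percentile of the array. For these a low r cannot separate weak co-variation from dim signal. Another member lay within 10 kb in the RefSeq annotation for 68 of the 161 profiles, which made 60 pairs. Pearson's r was above 0 in 41 pairs and below 0 in 19, with a median of 0.11 and a range of -0.53 to 0.68, and 0 of 60 pairs passed the adjusted threshold by either coefficient. The highest were MIRLET7A-1 and MIR100 (r = 0.68, permutation p = 0.00187), MIR23A and MIR27A (r = 0.63, permutation p = 0.00517), MIR27A and MIR24-1 (r = 0.63, permutation p = 0.00521) and MIR15A and MIR16-2 (r = 0.59, permutation p = 0.00892). Without the 2 farthest pigs these were 0.56, 0.19, 0.44 and 0.36. MIR98 and MIRLET7F-1, both within HUWE1, had r = 0.23, and MIR29B-1 and MIR29A had -0.11.

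Groups of microRNAs known from other cells were mostly dim. Of 19 probe sets for microRNAs of liver, brain, gut and epithelium, 18 lay at or below the 30th percentile, among them the liver microRNA MIR122 at 2.27, and MIR124A-1 was the exception. A second MIR124A copy, MIR124A-2, lay at percentile 0.154. None of the 19 was called in any comparison, with a P under 0.05 before adjustment for 0 by limma and 2 by the methods' t-test for IM10 against CON. The shares of all transcripts called were 2.29% for IM10 against CON, 2.1% for IM5 against CON and 2.75% for IM10 against IM5. At these shares lists of 14 to 19 probe sets would hold few calls or none, so their counts do not set them apart. Of 16 probe sets for microRNAs of blood, vessel and stromal cells, MIR143 (5.28), known from smooth muscle, and MIR214 (4.40) lay above the 30th percentile and MIR199A-1 was the only one called. MIR142, MIR155 and MIR146A, known from leukocytes, averaged 2.15, 1.87 and 1.71, at or below percentile 7.65. Of 14 probe sets of MIR17-92 and its paralogue clusters, which are known for promoting growth, 0 were called in any comparison, with a P under 0.05 before adjustment for 2 by limma for IM10 against CON and 0 by the methods' t-test. Both were MIR92A-2 probe sets with identical values (-0.24 ± 0.10), and 2 were called without CON replicate 1, CON replicate 2 or IM10 replicate 2.

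The listed genes that make and use microRNAs were well above the low end and were not called against CON. The list held no probe set for DROSHA, DGCR8 or DICER1, and it also included RAN, XRN1, HNRNPA1 and SRSF3. All 24 probe sets of this list, with a median log2 intensity of 6.68, lay above the 30th percentile. Those for XPO5, which exports the precursor, TARBP2, a Dicer partner, and AGO1, AGO2 and AGO4, which carry the mature microRNA, had mean values within 0.10 log2 units of CON in both groups. In IM10 against CON, 0 of 24 were called, beside 2.29% of all transcripts. HNRNPA1 (0.22, exact permutation p = 0.00649) and TSNAX (0.17, exact permutation p = 0.0519) had a limma P under 0.05 before adjustment but an FC below the threshold. The methods' t-test had 1 such P. In IM5 against CON 0 were called, beside 2.1% of all transcripts, and 0 had such a P with either tool.

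A few messenger RNAs known in mammals as targets of these families were called. In IM10 against CON they made up 3.45% of the MIR29 targets, 4.76% of the let-7 and MIR98 targets and 3.85% of the muscle microRNA targets, beside 2.29% of all transcripts. In IM5 against CON the shares were 0, 9.52 and 0%, beside 2.1% of all transcripts, and in lists of this size each call moves the share by several percent. Of 29 probe sets of MIR29 targets, 1 was lower in IM10 than in CON, MCL1, a survival gene (-0.28 ± 0.11, exact permutation p = 0.0411), and 0 were called in IM5, where 1 was below 0.05 before adjustment by limma and 1 by the methods' t-test. MCL1 values were 8.83 to 9.39 in CON (median 9.19), 8.81 to 9.31 in IM5 (median 9.03) and 8.69 to 9.12 in IM10 (median 8.87). The collagen probe sets of the list did not pass, and the median change of the list was -0.04 in IM10 and -0.02 in IM5, beside 0.00 for all transcripts. Of 21 probe sets of let-7 and MIR98 targets, MYC, a growth transcription factor gene, was called lower in both groups, at -0.29 ± 0.13 in IM10 (exact permutation p = 0.0801) and -0.52 ± 0.13 in IM5 (exact permutation p = 0.00216). With the methods' t-test 0 of the 21 had a P under 0.05 in IM10 against CON, so the IM10 call of MYC was lost. MYC had 6.29 to 6.74 in CON, 5.75 to 6.21 in IM5 and 5.84 to 6.76 in IM10. Every IM5 pig thus lay below every CON pig. Values all lower than in CON occurred in 0.0591% of all transcripts for IM5 and in 0.114% for IM10. CCND1, a cell cycle gene, was lower in IM5 (-0.31 ± 0.13, exact permutation p = 0.0368). Of 26 probe sets of muscle microRNA targets, FOXO1, a transcription factor gene of muscle wasting, was lower in IM10 (-0.41 ± 0.10, exact permutation p = 0.00216), with 4.87 to 5.53 in IM10 against 5.58 to 5.68 in CON, and 0 were called in IM5, where 1 was below 0.05 before adjustment by limma. None of these passed after adjustment, with limma adjusted p of 0.991 for each in IM10 and 0.998 in IM5.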

How the data were processed

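Biotin-labelled RNA of 18 pigs was hybridised to Affymetrix Porcine Gene 1.0 Sense Target arrays. The authors corrected the background and normalized with RMA in Expression Console, and the deposited values are log2 intensities with 2 decimals; their depth has no counterpart in counts, and the number of arrays limits the precision. Probe names came from the platform annotation, in which 13327 transcripts had 1 name, 357 several and 11704 none, and all 175 members matched a RefSeq record. MIR29B-2 and MIR190A were not analysed here. Positions of the RefSeq table, which gives no strand and is of another build than the array design, served only to find neighbours and host genes.

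Group means were fitted with limma 3.58.1 over all 25388 transcripts of all 18 arrays, tested on simulated data first. Members and lists were chosen with earlier results of these data known. Named genes were all called members, the muscle, let-7 and MIR29 families, the 10 brightest, members listed by the study, up to 4 called members of each other list and members with a far pig. For single transcripts, group means were also compared by exact permutation (two-sided). Correlations used deviations from group means and 100000 permutations, two-sided. Of 18 pairs of same-numbered pigs of different groups, 5 had deviations correlated above 0.1 over all transcripts, among them all pairs of replicate 1 (0.222 to 0.305) and that of replicate 6 in IM10 and CON (0.236). Since the rest did not, and the labels give no shared source, pigs were not paired. Alternatives were the methods' t-test, 2 groups only, a replicate block, omission of the dimmest 30%, quantile normalization, median centring, a trended and robust prior, and leaving out each pig.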

Additional observations from a re-analysis of the deposited data

Results flagged for a closer look

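Over 38 named microRNA transcripts, 8 of 114 groups of 6 pigs held 1 pig far from the rest, measured as its gap to the nearest pig divided by the range of the group; chance alone flags about 1 group in 20, or 5.7 here. Called members are among them: MIR29C in IM10, where replicate 3 (3.42) lay below the next pig at 3.82 (ratio 0.667), and MIR15A in IM10, where replicate 4 (4.04) lay below 4.51 (ratio 0.783). Both of these pigs were nearer to CON than the rest of their group. MIRLET7C in CON had replicate 3 at 2.89 above 2.25 (ratio 0.711), on the side of the insect meal groups. MIR208B in IM5 had replicate 6 at 3.69 above 2.25 (ratio 0.626), the pig that also had the highest MYH7 value. The other 4 were MIRLET7I in CON (replicate 4, 3.06 above 2.77, ratio 0.707), MIR124A-1 in CON (replicate 1, 5.04 below 5.85, ratio 0.681), MIR149 in CON (replicate 3, 6.25 above 5.82, ratio 0.642) and MIR935 in IM5 (replicate 2, 5.63 above 5.08, ratio 0.632). MIR935 was named because the study, which lists genes of liver and of muscle, lists it. It averaged 5.08, with changes of -0.07 ± 0.16 in IM10 and -0.11 ± 0.16 in IM5 against CON. With an FC of -1.05 in IM10 it did not meet the study's thresholds for muscle.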

How the results depend on the processing

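Most called members lay among the dimmest 30% of transcripts. Leaving these out removed 131 of the 175 members from testing, so fewer calls had to follow and the drop does not measure stability. Among the 44 members left, 1 was higher and 0 were lower in IM10 than in CON. Against CON, 1 was higher and 0 lower in IM5, and 0 were higher and 1 lower in IM10 than in IM5. The same 44 members had these counts in the main fit. The share of all transcripts called is not given for this setting. The methods' t-test called 1 member higher and 3 lower in IM10 than in CON, 4 higher and 3 lower in IM5 than in CON, and 1 higher and 6 lower in IM10 than in IM5. Of all 25388 transcripts, it called 185 higher and 239 lower, 169 and 182, and 242 and 229 in the same order. The counts of calls that follow are given without those of all transcripts and do not tell whether members differed from the array. When each pig was left out in turn, the calls ranged from 1 to 4 higher and 3 to 7 lower for IM10 against CON, from 4 to 8 higher and 2 to 6 lower for IM5 against CON, and from 1 to 2 higher and 5 to 10 lower for IM10 against IM5. The replicate number as a block gave 3 higher and 4 lower, 5 higher and 4 lower, and 1 higher and 6 lower in the same order, counts within 1.5 times the others; in 5 of 18 comparisons of a pig with the 6 pigs of another group, the best correlated one had its own number. The calls of MIR29C and MIR204 in both insect meal groups, of MIR98 in IM10, of MIR15A, MIRLET7C and MIR30D in IM5, and of MIRLET7G and MIR199A-1 between IM10 and IM5 were kept in all fits that tested them. The calls of MIR1307, MIR664, MIR181A-2 and MIRLET7F-1 were lost in 7 to 12 of the 18 fits without 1 pig and in 2 to 4 of the other settings. No change of a named member turned its direction where it was called. The number of members above the low end, 44, was 98 with the 10th percentile as the limit, 23 with the 50th and 11 with the 95th percentile of the genes not known from muscle, and 42 to 45 with 1 pig left out. Most members stood near the dim end, where probe signal limits what a small change can show.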
